A study of Homo sapiens with 9 samples.

Results

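The mitosis and G2/M genes described here are 55 genes whose products take a cell from G2 through mitosis and cytokinesis. They were chosen by name and function, with earlier results of these data known. All 55 were measured, among 19775 genes on the array, by 102 probe sets that the array's annotation maps to 1 symbol only. Each gene was read from the probe set that averaged highest across all 9 arrays, so levels can be compared between samples but not between genes. The samples were MDA-MB-231 cells, a human line from a triple-negative breast cancer, reverse transfected with the lipid reagent Lipofectamine in 6-well dishes at 600000 cells per well. The wells received Qmimic, Dmimic or AllStar at 10 nM, with 3 biological replicates of each, and total RNA was taken after 48 h. AllStar is the negative control, and every group shares the cell line, the reagent and the dose. The labels give neither the sequence of a mimic nor the meaning of Q and D, the series title names miR-34a and the receptor AXL, and cells without transfection were not analysed here.

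Mitosis is driven by cyclin-dependent kinase 1 with its cyclins A and B, which build up in late S phase and G2 and are destroyed as chromosomes separate. Most of these genes are transcribed late in the cycle, through the transcription factors B-MYB (MYBL2) and FOXM1 together with the MuvB complex, and are held silent in resting cells by the related DREAM complex. Their summed RNA is widely used as a measure of proliferation in tumour samples, and in bulk RNA fewer cells in G2 or mitosis and less RNA per cell cannot be told apart.

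The deposited values are log2 levels made by the authors with RMA, and differences below are log2 differences ± standard error from 1 limma model over all 3 groups. Calls required a limma adjusted p under 0.05 (Benjamini-Hochberg, 54613 probe sets) and a difference of at least 1.5-fold. AllStar replicate 3 differed in quality from the 8 remaining arrays: it correlated with them at 0.974 to 0.981, against 0.993 to 0.998 among themselves, and its 18S ribosomal RNA probe sets averaged 8.73, against 5.27 to 6.26. Summaries are therefore given with all 9 arrays and without that array, a choice made after its values were seen, and so are the genes whose printed difference it moved by over 1.5 times. Of the line's identity markers, vimentin (VIM) had a median of 13.68 and CD44 of 12.02, beside 5.49 over all probe sets. Of the receptor and epithelial adhesion genes known to be low in this line, PGR (3.98) and CDH1 (3.64) lay below that median, while ESR1 (6.86), ERBB2 (8.62) and EPCAM (8.02) lay above it. All 5 leukocyte markers measured had medians of 3.83 to 6.10 and the 6 fibroblast and endothelial markers 3.40 to 6.30. On AllStar replicate 3 the leukocyte list lay 0.57 above the mean of AllStar replicates 1 and 2 at the median and the fibroblast and endothelial list 0.33, and their part in the results was not tested.

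The 55 genes moved as a block from array to array, so counts of genes here are not counts of independent observations. Set against the mean of AllStar replicates 1 and 2, their median was -0.63, -0.35 and -0.27 in the 3 Qmimic wells. In the 3 Dmimic wells it was -0.35, -0.26 and -0.99, and in AllStar replicate 3 it was -0.38. The median over all genes on these 7 arrays stayed between -0.05 and 0.02. The lowest array was Dmimic replicate 3, which gave the lowest of the 9 values for 54 of the 55 genes. The exception was KIF18A, a kinesin that shortens kinetochore microtubules, which was lowest in AllStar replicate 3. Qmimic replicate 1 was the lowest Qmimic well for all 55 and the second lowest array for 40. AllStar replicate 1 held the highest value for 26 genes and AllStar replicate 2 for 27, and AllStar replicate 3 for the other two, BIRC5 and PLK1.

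**Figure D1:**
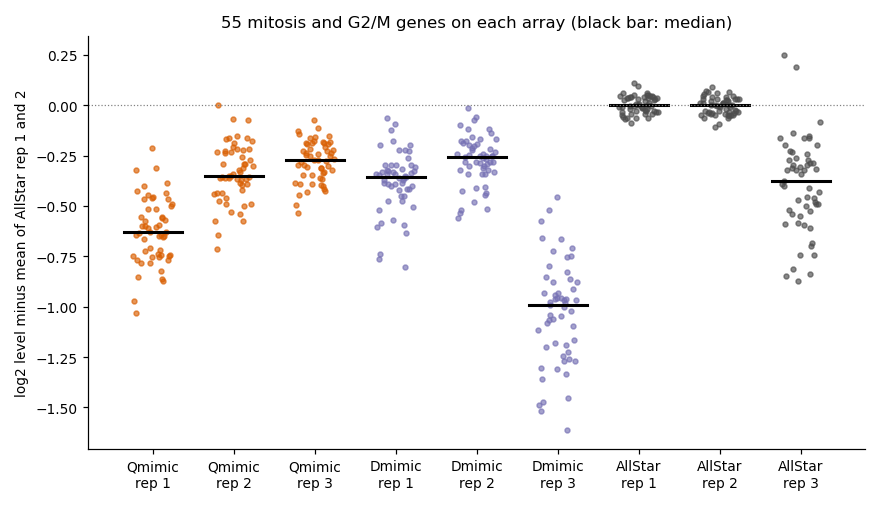
Each point is 1 of the 55 genes on 1 array, as its log2 level minus the mean of AllStar replicates 1 and 2, and the black bar is the median. The medians were -0.63, -0.35 and -0.27 for Qmimic and -0.35, -0.26 and -0.99 for Dmimic, and AllStar replicate 3 lay at -0.38, while AllStar replicates 1 and 2 sit at 0 by construction.

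With all 9 arrays, Qmimic cells had lower means than AllStar cells for 54 of the 55 genes, beside 53.0% of all genes, with differences from -0.63 to 0.01 and a median of -0.29 (all genes -0.02). None was called by limma, beside 0% of all genes called lower, while 8 had an unadjusted p under 0.05, beside 6.74% of all genes. The smallest adjusted p was 0.244. Dmimic cells lay below AllStar cells for 55 of 55, beside 51.9% of all genes, with differences from -0.85 to -0.10 and a median of -0.42 (all genes -0.01). Again none was called (0% of all genes called lower), 22 had an unadjusted p under 0.05 (4.80% of all genes), and the smallest adjusted p was 0.149. For the mean of both mimics the median was -0.35, 19 had an unadjusted p under 0.05 (7.87% of all genes) and none was called (0.0152% of all genes called lower). Fits with array weights, or with AllStar replicate 3 and Dmimic replicate 3 both left out, did call members, as given with the comparison of fits.

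Leaving out AllStar replicate 3 made most differences larger, and all 55 lay below 0 for both mimics. Their median was -0.41 for Qmimic and -0.55 for Dmimic. The gap of AllStar replicate 3 from the mean of AllStar replicates 1 and 2 had a median of -0.38 for the members. It was -0.35 for all 10184 genes in the same range of levels, so this shift was not particular to the members. At an unadjusted p under 0.05, 25 genes were lower in Qmimic cells (9.35% of all genes) and 52 in Dmimic cells (9.65% of all genes). None was called in either comparison, beside 0.253% of all genes called lower for Qmimic and 0.647% for Dmimic. The smallest adjusted p was 0.13 for Qmimic, for CCNA2, and 0.051 for Dmimic, for MYBL2, just outside the threshold. The 2 comparisons share their AllStar arrays, so their likeness is no separate evidence.

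The groups did not overlap for a part of the genes. Every Qmimic array lay below every AllStar array for 18 of 55 genes (11.0% of all genes), and every Dmimic array for 17 (7.13% of all genes). Both held for 16 genes, beside 4.21% of all genes: CCNA2, FOXM1, MYBL2, PLK1, UBE2C, PTTG1, ESPL1, CENPA, CENPE, SPC25, AURKB, BIRC5, KIF20A, TPX2, NUSAP1 and NCAPH. When AllStar replicate 3 was left out, the same count was 54 of 55 for all 6 mimic arrays against 2 AllStar arrays (11.5% of all genes). The gene left over was ECT2, an exchange factor for the GTPase RhoA, because its Qmimic replicate 2 value of 10.54 lay above the 10.47 of AllStar replicate 2.

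The 2 transcription factors of the set had the largest median difference of the roles. MYBL2, which encodes B-MYB, had log2 levels of 7.53, 7.65 and 7.86 in Qmimic cells and 7.56, 7.78 and 6.94 in Dmimic cells, against 8.24, 8.36 and 8.10 in AllStar cells. All 6 mimic arrays were below all 3 AllStar arrays. Its difference from AllStar was -0.55 ± 0.19 for Qmimic (adjusted p = 0.244) and -0.81 ± 0.19 for Dmimic (adjusted p = 0.149). In the fit without AllStar replicate 3 these were -0.62 ± 0.20 (adjusted p = 0.135) and -0.87 ± 0.20 (adjusted p = 0.051). FOXM1, the forkhead factor of the G2/M programme, stood at 8.88, 9.17 and 9.32 in Qmimic cells and 8.94, 9.30 and 8.13 in Dmimic cells, against 9.67, 9.81 and 9.45 in AllStar cells. Here too no mimic array reached an AllStar array, and Dmimic replicate 3 was 0.81 below the next lowest Dmimic well. The difference was -0.52 ± 0.25 for Qmimic and -0.85 ± 0.25 for Dmimic (adjusted p = 0.324 and 0.23), and without AllStar replicate 3 it was -0.62 and -0.95.

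**Figure D2:**
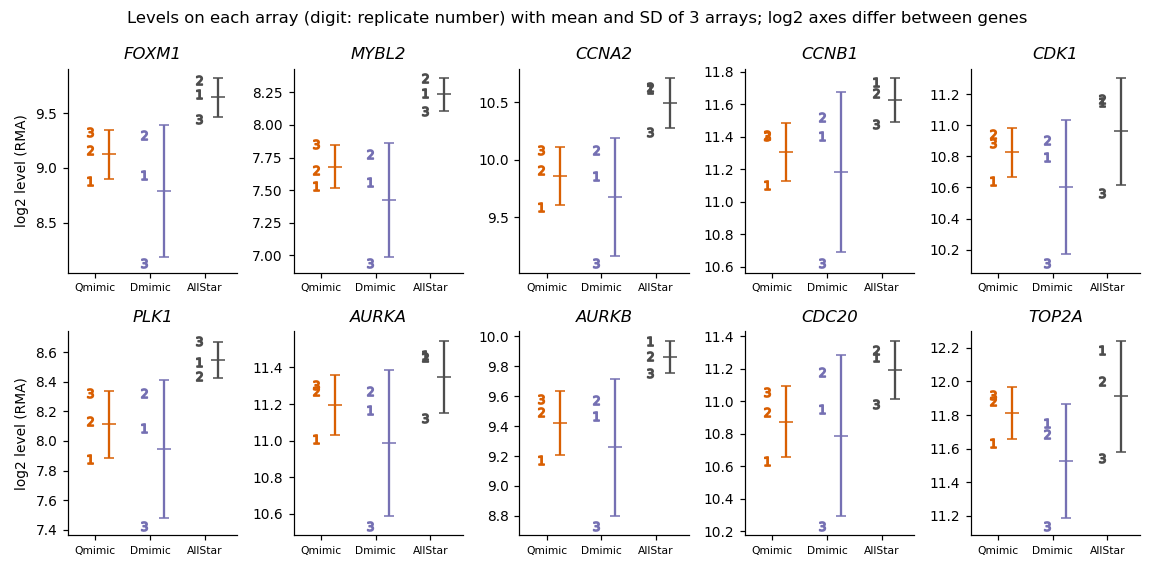
Log2 RMA levels of 10 members on each array, with the digit giving the replicate number and the bar beside it the mean and SD of 3 arrays, for Qmimic, Dmimic and AllStar from left to right. Dmimic replicate 3 is the lowest array in all 10 panels, and in the FOXM1, MYBL2, CCNA2, PLK1 and AURKB panels every mimic array lies below every AllStar array.

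B-MYB, FOXM1 and MuvB act at a short promoter element, the cell cycle genes homology region (CHR), often with CCAAT boxes upstream that bind NF-Y, so the members' promoters were read for these letters. RefSeq windows from 250 bases before to 50 after a gene's start (build GRCh38.p14) were held for 47 of the 55 members, in 59 windows. The CHR letters TTTGAA, on either strand, were in 37 of the 59 windows (62.7%), against 15.2% of all 35116 windows. A list of 85 other mitosis genes, 82 of them measured, had 91 windows for 71 genes, and the letters were in 40.7% of these. A list of 38 DNA replication and G1/S genes had 46 windows for 33 genes, and the letters were in 2.17% of these. CCAAT, on either strand, was in 67.8% of the members' windows, against 34.6% of all, and the E2F letters TTCCCGC in 11.9%, against 6.55%. In the replication list TTCCCGC was in 34.8% of windows. Of 48 matches to TTTGAA in the members' windows, 27 began between positions -40 and 10 from the start, in 24 genes. A site shared by overlapping windows of a gene was counted in each window. A match describes the letters and is not a binding site.

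The 100 bases before the start of 7 members are given here to show this layout, 5′ to 3′ on the gene's strand, with both motifs in capitals. On the opposite strand the CHR letters read TTCAAA, and a CCAAT box there reads ATTGG. The first 5 hold the CHR letters close to the start. Of the exact letters searched, CCNA2 holds only those of a CCAAT box in these bases, and MYBL2 holds neither. A sequence that differs from these letters was not counted, so a CHR of another form could be present. Both genes were among the members with the largest differences. They lie, in this order, at chr15:59105046-59105145 (+), chr16:23678789-23678888 (+), chr3:44761694-44761793 (+), chr4:17810879-17810978 (+), chr12:53268199-53268298 (+), chr4:121823884-121823983 (-) and chr20:43667014-43667113 (+).
CCNB2: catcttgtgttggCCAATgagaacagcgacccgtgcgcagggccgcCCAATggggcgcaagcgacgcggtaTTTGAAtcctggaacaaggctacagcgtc
PLK1: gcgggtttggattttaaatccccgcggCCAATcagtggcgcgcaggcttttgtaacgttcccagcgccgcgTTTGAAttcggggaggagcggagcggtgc
KIF15: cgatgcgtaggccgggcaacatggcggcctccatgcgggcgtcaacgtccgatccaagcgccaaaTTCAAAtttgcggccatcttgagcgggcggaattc
NCAPG: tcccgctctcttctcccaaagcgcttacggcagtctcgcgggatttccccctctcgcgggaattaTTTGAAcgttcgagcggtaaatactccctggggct
ESPL1: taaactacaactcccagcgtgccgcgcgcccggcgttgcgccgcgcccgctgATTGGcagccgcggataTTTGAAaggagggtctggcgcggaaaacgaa
CCNA2: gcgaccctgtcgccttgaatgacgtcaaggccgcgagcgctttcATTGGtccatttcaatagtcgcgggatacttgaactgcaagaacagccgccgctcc
MYBL2: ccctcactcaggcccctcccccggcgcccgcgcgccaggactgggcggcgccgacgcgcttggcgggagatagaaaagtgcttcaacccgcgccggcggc

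The members were also split by whether the exact letters TTTGAA were anywhere in a window, a description given with no test. The split does not separate genes regulated through the CHR from others, and a link to the differences was not tested. The 34 members with TTTGAA in a window had a median difference of -0.39 between Dmimic and AllStar cells, and the 13 without had -0.53. For Qmimic these were -0.26 and -0.35. In the fit without AllStar replicate 3 the medians with and without the letters were -0.40 and -0.42 for Qmimic, and -0.54 and -0.62 for Dmimic. In CCNB2, PLK1, NCAPG and ESPL1 the letters began at positions -29, -29, -35 and -31, and in KIF15 the reverse complement began at -35; these 5 were picked for letters close to the start.

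Of the 8 genes for entry into mitosis, CCNA2, the cyclin of S phase and G2, differed most. CCNA2 had levels of 9.59, 9.91 and 10.09 in Qmimic cells and 9.86, 10.08 and 9.10 in Dmimic cells, against 10.61, 10.63 and 10.24 in AllStar cells. The groups did not overlap, and AllStar replicate 3 was nearest to the mimics. The difference was -0.63 ± 0.23 for Qmimic (1.55-fold lower, adjusted p = 0.263) and -0.82 ± 0.23 for Dmimic (1.76-fold lower, adjusted p = 0.216). With that array left out it was -0.76 ± 0.24 (adjusted p = 0.13) and -0.94 ± 0.24 (adjusted p = 0.069). Its other probe set gave -0.19 and -0.55 with all 9 arrays.

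CCNB1, the cyclin that switches CDK1 on for mitosis, had 11.10, 11.41 and 11.41 in Qmimic cells and 11.41, 11.52 and 10.62 in Dmimic cells, against 11.74, 11.67 and 11.48 in AllStar cells. Qmimic lay below AllStar on every array, while Dmimic replicate 2 was above AllStar replicate 3. The difference was -0.32 ± 0.21 for Qmimic and -0.44 ± 0.21 for Dmimic (adjusted p = 0.41 and 0.406). CDK1, the kinase itself, had 10.64, 10.94 and 10.89 in Qmimic cells and 10.80, 10.90 and 10.11 in Dmimic cells, against 11.15, 11.17 and 10.56 in AllStar cells. Its AllStar replicate 3 value was below all Qmimic values, and the differences were -0.14 ± 0.22 and -0.36 ± 0.22. Without that array they were -0.33 and -0.55. The 3 other CDK1 probe sets gave larger differences with all 9 arrays, from -0.61 to -0.48 for Qmimic and from -0.66 to -0.48 for Dmimic.

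CDC25C, a phosphatase that activates CDK1, was 1 of only 2 members lower in Qmimic than in Dmimic cells. Its levels were 7.66, 7.91 and 8.05 in Qmimic cells and 8.11, 8.24 and 7.50 in Dmimic cells, against 8.45, 8.44 and 7.97 in AllStar cells. The difference from AllStar was -0.41 ± 0.20 for Qmimic and -0.33 ± 0.20 for Dmimic, and -0.57 and -0.49 without AllStar replicate 3. CCNB2 (a second B-type cyclin), CDC25B (a related phosphatase), CDCA3 (a trigger of WEE1 destruction) and CKS2 (a small CDK-binding protein) complete the role. Over the 8 genes the differences with all 9 arrays ran from -0.63 to -0.02 for Qmimic and from -0.82 to -0.10 for Dmimic, with CKS2 nearest to 0 in both. Leaving out AllStar replicate 3 moved the ranges to -0.76 to -0.12 for Qmimic and -0.94 to -0.20 for Dmimic, and CKS2 stayed nearest to 0.

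Among the 4 mitotic kinases, PLK1, the polo-like kinase needed at almost every step of mitosis, had 7.88, 8.13 and 8.32 in Qmimic cells and 8.09, 8.33 and 7.42 in Dmimic cells, against 8.54, 8.44 and 8.68 in AllStar cells. The groups did not overlap, and PLK1 and BIRC5 were the only members for which AllStar replicate 3 was the highest AllStar array. The difference was -0.44 ± 0.21 for Qmimic and -0.60 ± 0.21 for Dmimic (adjusted p = 0.317 and 0.284). Leaving out AllStar replicate 3 made both smaller, at -0.37 and -0.54.

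AURKA, the Aurora kinase of the spindle poles, had 11.01, 11.27 and 11.30 in Qmimic cells and 11.17, 11.27 and 10.53 in Dmimic cells, against 11.47, 11.46 and 11.12 in AllStar cells. Only AllStar replicate 3 lay within the range of the mimics, and the difference was -0.15 ± 0.19 for Qmimic and -0.36 ± 0.19 for Dmimic (adjusted p = 0.639 and 0.441). Without that array it was -0.27 and -0.47. MELK, a kinase that is high in dividing cells, had 10.70, 10.86 and 10.90 in Qmimic cells and 10.79, 10.85 and 10.35 in Dmimic cells, against 11.00, 11.03 and 10.85 in AllStar cells. Its difference was -0.14 ± 0.13 for Qmimic and -0.30 ± 0.13 for Dmimic. NEK2, a kinase of centrosome separation, differed by -0.15 for Qmimic and -0.21 for Dmimic, with a standard error of 0.25. Leaving out AllStar replicate 3 gave NEK2 differences of -0.35 and -0.40.

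The 5 spindle checkpoint genes encode proteins that delay anaphase until every kinetochore is attached. For Qmimic their differences ran from -0.26 in MAD2L1 to -0.12 in BUB1, and for Dmimic from -0.44 in TTK to -0.12 in BUB3. No member of this role had an unadjusted p under 0.05 for Qmimic with all 9 arrays (6.74% of all genes), and 1 did for Dmimic (4.80% of all genes). In the 8-array fit the ranges were -0.41 to -0.28 for Qmimic and -0.58 to -0.20 for Dmimic, where 4 of 5 had an unadjusted p under 0.05 (9.65% of all genes). BUB3 was the other member that was lower in Qmimic than in Dmimic cells, at -0.08 ± 0.14. One of its 6 probe sets, with a mean level of 4.44, lay the other way from the rest, at 0.22 for Qmimic and 0.21 for Dmimic.

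The 4 genes of anaphase and chromatid separation had medians of -0.39 for Qmimic and -0.47 for Dmimic. CDC20, the activator of the anaphase-promoting complex, had 10.63, 10.94 and 11.06 in Qmimic cells and 10.95, 11.18 and 10.23 in Dmimic cells, against 11.27, 11.32 and 10.98 in AllStar cells. AllStar replicate 3 overlapped with both mimics, and the difference was -0.32 ± 0.22 for Qmimic and -0.40 ± 0.22 for Dmimic (adjusted p = 0.431 and 0.455). ESPL1, the protease separase that cuts cohesin, had 8.79, 9.02 and 9.08 in Qmimic cells and 9.04, 9.21 and 8.47 in Dmimic cells, against 9.43, 9.60 and 9.22 in AllStar cells. Dmimic replicate 2 came within 0.01 of AllStar replicate 3 without reaching it. The difference was -0.45 ± 0.18 and -0.51 ± 0.18 (adjusted p = 0.284 and 0.302), and -0.55 and -0.61 without AllStar replicate 3. UBE2C, the ubiquitin-conjugating enzyme of the same complex, differed by -0.47 for Qmimic and -0.51 for Dmimic, and PTTG1, the separase inhibitor securin, by -0.32 and -0.42, without overlap in either gene.

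Centromere and kinetochore genes hold the attachment point of the spindle. SPC25, a subunit of the NDC80 complex that grips microtubules, had 7.66, 8.05 and 8.13 in Qmimic cells and 8.02, 8.07 and 7.14 in Dmimic cells, against 8.68, 8.58 and 8.24 in AllStar cells. All mimic arrays were lower, with differences of -0.55 ± 0.24 for Qmimic and -0.76 ± 0.24 for Dmimic (adjusted p = 0.298 and 0.251), and of -0.68 and -0.89 without AllStar replicate 3. CENPA, the histone variant that marks centromeres, had 8.49, 8.61 and 8.76 in Qmimic cells and 8.68, 8.82 and 8.07 in Dmimic cells, against 9.02, 9.11 and 8.93 in AllStar cells. Its difference was -0.40 ± 0.17 and -0.50 ± 0.17 (adjusted p = 0.295 and 0.285). In NUF2 and NDC80, partners of SPC25 in the same complex, AllStar replicate 3 was 0.74 and 0.68 below the mean of the other AllStar arrays. Their differences were -0.21 and -0.18 for Qmimic with all 9 arrays and -0.46 and -0.41 without that array. CENPE, a kinesin of the kinetochore, differed by -0.35 for Qmimic and -0.55 for Dmimic, and CENPF by -0.30 and -0.45.

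The chromosomal passenger complex corrects wrong attachments and starts cytokinesis. AURKB, its kinase, had 9.18, 9.50 and 9.58 in Qmimic cells and 9.47, 9.58 and 8.73 in Dmimic cells, against 9.97, 9.87 and 9.75 in AllStar cells. The groups did not overlap, and the difference was -0.45 ± 0.20 for Qmimic and -0.61 ± 0.20 for Dmimic (adjusted p = 0.309 and 0.274). BIRC5, the subunit survivin, had 9.78, 9.99 and 10.12 in Qmimic cells and 9.90, 10.10 and 9.12 in Dmimic cells, against 10.39, 10.45 and 10.67 in AllStar cells. Here AllStar replicate 3 was the highest array, so leaving it out made the differences smaller. They were -0.54 ± 0.22 and -0.80 ± 0.22 with all 9 arrays (adjusted p = 0.283 and 0.199) and -0.46 and -0.72 without it. CDCA8 (borealin) differed by -0.46 for Qmimic and -0.56 for Dmimic, and the scaffold INCENP by -0.25 and -0.27.

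**Figure D3:**
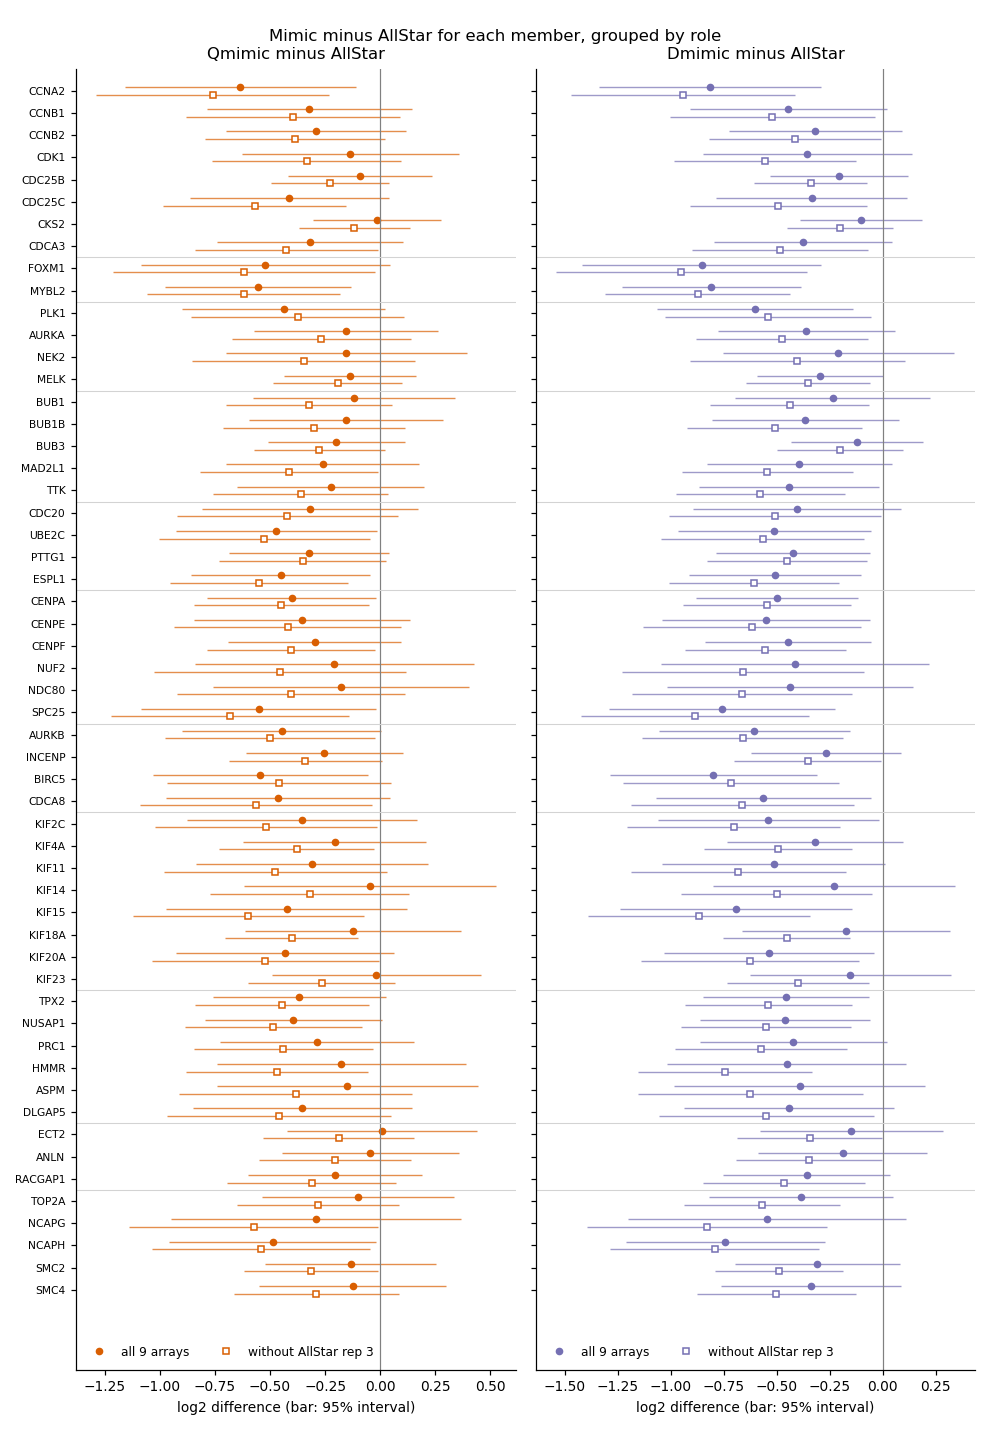
Log2 difference from AllStar of each member for Qmimic (left) and Dmimic (right), grouped by role from entry into mitosis at the top to chromosome structure at the bottom, with all 9 arrays (filled circles) and without AllStar replicate 3 (open squares), and 95% intervals as bars. Without that array all 55 points lie below 0 in both panels, and BIRC5 and PLK1 are the only rows where the square is nearer to 0 than the circle.

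The 8 kinesins are motors of the spindle and of the midzone. KIF15, which helps keep spindle poles apart, had 8.07, 8.44 and 8.52 in Qmimic cells and 8.31, 8.43 and 7.49 in Dmimic cells, against 8.99, 8.89 and 8.42 in AllStar cells. AllStar replicates 1 and 2 lay above all mimic arrays and AllStar replicate 3 among them. The difference was -0.42 ± 0.25 for Qmimic and -0.69 ± 0.25 for Dmimic (adjusted p = 0.373 and 0.297), and -0.60 and -0.87 without AllStar replicate 3. KIF18A had 7.84, 8.09 and 8.08 in Qmimic cells and 8.05, 8.15 and 7.65 in Dmimic cells, against 8.44, 8.37 and 7.57 in AllStar cells. For KIF18A the difference was -0.12 ± 0.22 and -0.17 ± 0.22 with all 9 arrays, and -0.40 ± 0.14 and -0.45 ± 0.14 without AllStar replicate 3. The other kinesins, KIF2C, KIF4A, KIF11, KIF14, KIF20A and KIF23, had differences from -0.43 to -0.02 for Qmimic and from -0.54 to -0.15 for Dmimic. Leaving out AllStar replicate 3 moved these ranges to -0.52 to -0.26 and -0.70 to -0.40, and KIF23 and KIF14 moved most for Qmimic, to -0.26 and -0.32, against -0.02 and -0.05 with all 9 arrays. Of these 6, KIF20A of the central spindle was the 1 kinesin whose groups did not overlap.

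The 6 spindle assembly genes code for proteins that nucleate, bundle or stabilise microtubules. HMMR, a microtubule-binding protein, had 7.65, 8.01 and 8.01 in Qmimic cells and 7.79, 7.87 and 7.18 in Dmimic cells, against 8.33, 8.39 and 7.48 in AllStar cells. AllStar replicate 3 was 0.87 below the mean of the other AllStar arrays, the largest such gap among the 55. The difference was -0.18 ± 0.25 for Qmimic and -0.45 ± 0.25 for Dmimic with all 9 arrays, and -0.47 ± 0.19 and -0.74 ± 0.19 without that array, where the adjusted p for Dmimic was 0.0658. TPX2, an activator of AURKA, and NUSAP1, a microtubule bundling protein, had no overlap between groups. TPX2 differed by -0.37 for Qmimic and -0.46 for Dmimic, and NUSAP1 by -0.39 and -0.46. PRC1, ASPM and DLGAP5 had differences from -0.35 to -0.15 for Qmimic and from -0.44 to -0.39 for Dmimic, and from -0.46 to -0.38 and -0.62 to -0.55 without AllStar replicate 3.

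The 3 cytokinesis genes had the smallest median difference of the roles, -0.04 for Qmimic and -0.19 for Dmimic. On the probe set read for each gene, ECT2 was the only member at or above 0 for Qmimic, with 0.01 ± 0.19. It differed by -0.15 ± 0.19 for Dmimic. Its other probe sets, with mean levels of 8.45 and 4.38, gave -0.43 and -0.59 for Qmimic and -0.38 and -0.57 for Dmimic with all 9 arrays. ANLN, the scaffold anillin of the cleavage furrow, differed by -0.04 ± 0.18 and -0.19 ± 0.18, and its other probe set gave -0.19 and -0.24. RACGAP1, a partner of KIF23 in the central spindle, differed by -0.20 ± 0.18 and -0.36 ± 0.18. With AllStar replicate 3 left out, the 3 genes ran from -0.31 to -0.19 for Qmimic and from -0.47 to -0.34 for Dmimic.

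TOP2A, the topoisomerase that untangles sister chromatids, had 11.63, 11.89 and 11.92 in Qmimic cells and 11.75, 11.69 and 11.14 in Dmimic cells, against 12.19, 12.0008 and 11.54 in AllStar cells. AllStar replicate 3 was below every Qmimic array and 2 of the Dmimic arrays. The difference was -0.10 ± 0.20 for Qmimic and -0.39 ± 0.20 for Dmimic (adjusted p = 0.777 and 0.433), and -0.28 and -0.57 without that array. NCAPH, a condensin I subunit, had 8.58, 9.0 and 9.0 in Qmimic cells and 8.80, 8.95 and 8.06 in Dmimic cells, against 9.38, 9.42 and 9.24 in AllStar cells. No mimic array reached an AllStar array, and the difference was -0.49 ± 0.21 and -0.74 ± 0.21 (adjusted p = 0.296 and 0.209).

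SMC2, a core ATPase of both condensins, had 8.81, 9.05 and 9.03 in Qmimic cells and 8.96, 8.94 and 8.48 in Dmimic cells, against 9.32, 9.24 and 8.74 in AllStar cells. SMC4, its partner, had 10.68, 10.93 and 10.96 in Qmimic cells and 10.81, 10.89 and 10.23 in Dmimic cells, against 11.12, 11.18 and 10.65 in AllStar cells. In both genes AllStar replicate 3 lay below all Qmimic arrays. Their differences were -0.13 each for Qmimic and -0.31 and -0.34 for Dmimic with all 9 arrays. In the fit without that array they were -0.31 and -0.29 for Qmimic and -0.49 and -0.50 for Dmimic. NCAPG, a condensin I subunit like NCAPH, differed by -0.29 ± 0.30 for Qmimic and -0.55 ± 0.30 for Dmimic with all 9 arrays, and by -0.57 and -0.83 without AllStar replicate 3.

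Of the 47 other probe sets of the members, 43 were below 0 for Qmimic and 46 for Dmimic with all 9 arrays, and 45 for each mimic without AllStar replicate 3. Those above 0 with all 9 arrays belonged to BUB3 for both mimics, and to CENPF, ASPM and SMC2 for Qmimic. The 27 members with more than 1 probe set had up to 6, and probe sets of 1 gene can share transcripts.

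The members varied more within the mimic groups than most genes did. The median SD of a member over 3 arrays was 0.18 in Qmimic, 0.40 in Dmimic and 0.22 in AllStar cells, against 0.076, 0.083 and 0.21 over all genes. Dmimic replicate 3 lay below the mean of Dmimic replicates 1 and 2 for all 55 members, with differences of -0.99 to -0.35 and a median of -0.69. All 55 were under the 5th percentile of that difference over all genes (-0.28), where 5.00% of all genes lie. Its 18S probe sets averaged 5.85 and its interquartile range was 3.45, against 5.27 to 6.26 and 3.41 to 3.53 on the 7 arrays other than AllStar replicate 3. It lay outside those 7 arrays in the 3′ minus 5′ difference of the GAPDH probe sets (0.252, against 0.133 to 0.201), in the hybridisation spikes (9.78, against 9.23 to 9.67) and in its best correlation with another array (0.9969, against 0.9975 to 0.9982), and the part of these in the results was not tested. Qmimic replicate 1 lay below the mean of the other Qmimic wells for all 55, with a median difference of -0.31, and 49 were under the 5th percentile of all genes (-0.21). In AllStar replicate 3 the median gap for the members, -0.38, was close to the -0.35 of all 10184 genes in the same range of levels, and 3 members were under the 5th percentile of all genes (-0.82).

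**Figure D4:**
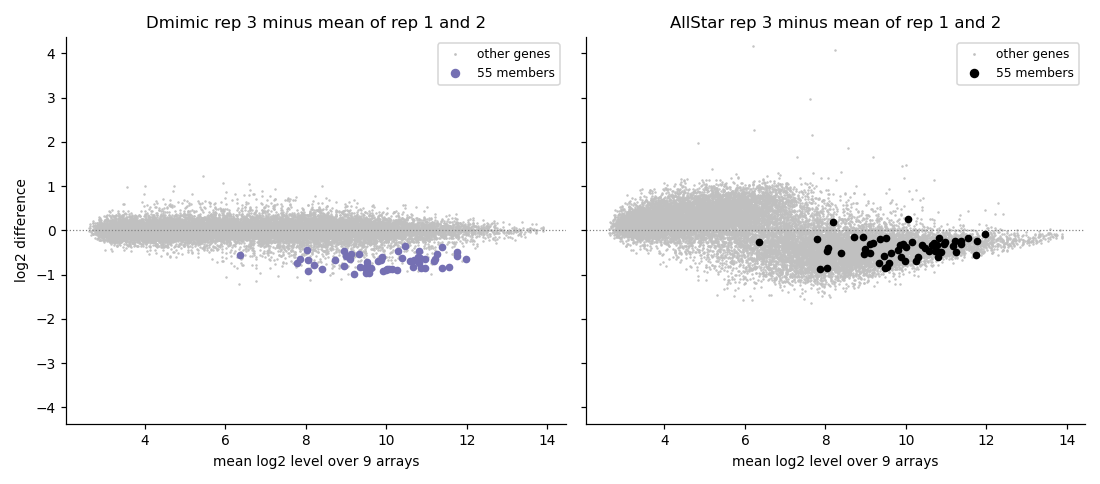
Difference of Dmimic replicate 3 (left) and AllStar replicate 3 (right) from the mean of the other arrays of its group, against the mean log2 level over 9 arrays, for the 55 members (large points) and all other genes (grey). On the left the members run from -0.99 to -0.35 under a cloud centred near 0, and on the right they lie within a cloud whose median at their levels is -0.35.

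Qmimic and Dmimic were compared directly, a comparison that does not depend on the AllStar arrays for its differences. With all 9 arrays Qmimic was higher than Dmimic for 53 of 55 members and lower for the remaining 2, beside 54.1% of all genes lower, with a median of 0.15 and a range of -0.08 to 0.33. TOP2A had the smallest p, at 0.29 ± 0.20, followed by MYBL2 at 0.25 ± 0.19, FOXM1 at 0.33 ± 0.25, NCAPH at 0.25 ± 0.21 and MELK at 0.16 ± 0.13. None was called by limma (0% of all genes in either direction), none had an unadjusted p under 0.05 (1.04% of all genes higher and 1.50% lower), and the median 95% half-width was 0.45. The order turned on 1 well. Without Dmimic replicate 3 the median was -0.08 and 47 of 55 members were lower in Qmimic cells, and the Dmimic difference from AllStar had a median of -0.16, with 49 of 55 below 0. Without Qmimic replicate 1 the median of Qmimic minus Dmimic was 0.25 and that of Qmimic minus AllStar -0.19. For a typical member the 95% interval thus held differences in either direction between the mimics.

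**Figure D5:**
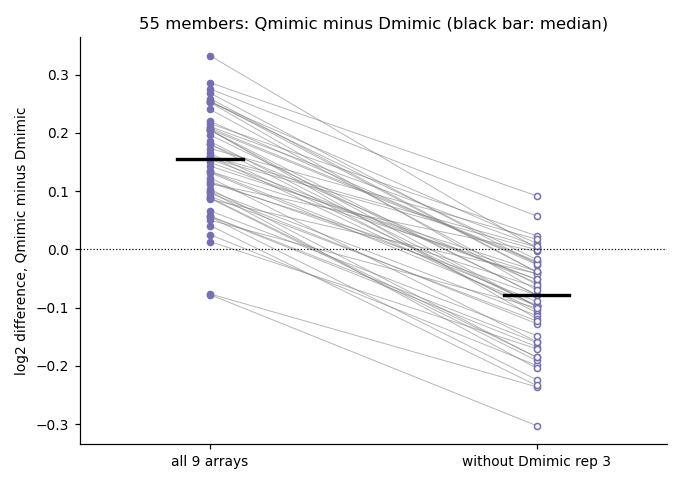
Qmimic minus Dmimic (log2) for each of the 55 members with all 9 arrays (left) and without Dmimic replicate 3 (right), with a line joining each gene and the black bar at the median. The median was 0.15 with all arrays and -0.08 without that well.

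Calls among the members appeared when AllStar replicate 3 and Dmimic replicate 3 were both left out, and with array weights. In a fit without AllStar replicate 3 and Dmimic replicate 3, chosen after the data were seen, 5 members fell with Qmimic (0.480% of all genes). They were CCNA2 (-0.76 ± 0.13, adjusted p = 0.0153), MYBL2 (-0.62 ± 0.10, adjusted p = 0.0146), SPC25 (-0.68, adjusted p = 0.0185), KIF15 (-0.60, adjusted p = 0.027) and FOXM1 (-0.62, adjusted p = 0.0377). In the same fit MYBL2 alone fell with Dmimic (-0.63, adjusted p = 0.0373), beside 0.384% of all genes called lower. When Qmimic replicate 1 was left out as well, CCNA2 was called for Qmimic (0.268% of all genes) and CCNA2 and MYBL2 for Dmimic (0.425% of all genes). With AllStar replicate 3 and Qmimic replicate 1 left out, none was called by limma. Array weights estimated in limma were 0.896, 5.17 and 0.0572 for AllStar replicates 1, 2 and 3, so the AllStar mean rested mostly on replicate 2. Dmimic replicate 3 had a weight of 0.78 and Qmimic replicate 1 one of 1.25. With these weights 5 members were called lower for Qmimic (0.516% of all genes), 12 for Dmimic (1.07% of all genes) and 9 for the mean of both (0.673% of all genes).

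Genes that neighbour the set in function were read from lists written from general knowledge, with earlier results of these data known. Of 82 other mitosis genes, 67 were below 0 for the mean of both mimics with all 9 arrays, with a median of -0.26. Over all genes 53.0% were below 0 for Qmimic and 51.9% for Dmimic, each taken alone and not as the mean of both. None of the 82 was called (0.0152% of all genes called lower). At an unadjusted p under 0.05, 24 of the 82 were lower, beside 7.87% of all genes, and 4 were higher. Without AllStar replicate 3 their median was -0.42 and 3 fell (0.445% of all genes), among them CDC23, a subunit of the anaphase-promoting complex (-0.78, adjusted p = 0.0188), and KNTC1, a kinetochore protein of the checkpoint (-0.59, adjusted p = 0.0493). Genes of DNA replication and G1/S lay lower still, with 37 of 37 below 0, a median of -0.46 and none called. Without AllStar replicate 3 their median was -0.60 and 9 fell (0.445% of all genes). Among them were CDC6, which loads the replicative helicase (-0.71, adjusted p = 0.0217), the helicase subunits MCM2 (-0.94) and MCM3 (-0.94), and GINS3 (-1.07). This list also had a median of -1.02 on Dmimic replicate 3 relative to AllStar replicates 1 and 2, beside -0.56 and -0.41 on the other Dmimic wells.

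Cohesin is the ring that holds sister chromatids together and is made in all cycling cells. Its 9 genes had a median of 0.06 for the mean of both mimics with all 9 arrays and -0.17 without AllStar replicate 3. None was called by limma in either fit (0.0152% and 0.445% of all genes called lower). With all 9 arrays 1 was lower at an unadjusted p under 0.05, beside 7.87% of all genes, and 2 were higher. The 11 DREAM and MuvB subunits had medians of -0.06 and -0.05. With all 9 arrays none of them was called. Without AllStar replicate 3 only the repressor E2F5 fell (-0.90, adjusted p = 0.0183), beside 0.445% of all genes called lower. LIN37, a MuvB subunit, lay the other way, at 0.58 with all 9 arrays and 0.32 without AllStar replicate 3 (adjusted p = 0.135 and 0.049). RBBP4, also a MuvB subunit, was lower, at -0.32 and -0.45 (adjusted p = 0.21 and 0.0368). Both genes were under the 1.5-fold limit in both fits.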

How the data were processed

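Total RNA of 9 wells was hybridised to 9 Affymetrix HG-U133 Plus 2.0 arrays. The deposited values are log2 levels per probe set made by the authors with RMA, per the series text, which also names AFFYGUI and limma; versions are not given in the sources used here. RMA can shrink differences of low signals. The deposited distributions were not equal: the interquartile range was 2.99 on AllStar replicate 3 and 3.41 to 3.53 on the other arrays. Of 54675 probe sets, 62 controls were set aside and 54613 tested, with no filter on level. Platform annotation gave 1 symbol for 41091, several for 1801 and none for 11721, and 0 symbols were updated.

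In limma 3.58.1 (R 4.3.3) a model with 3 groups gave Qmimic and Dmimic against AllStar, their mean against AllStar, and Qmimic against Dmimic (eBayes, Benjamini-Hochberg over all probe sets). Arrays have no read depth, and their number limits the precision. Whether wells with the same replicate number were handled together is not stated in the labels. Of 9 same-number pairs of arrays, 3 had residuals that correlated above 0.1 (range -0.358 to 0.272). With 3 arrays per group these residuals depend on each other and on any outlying array, so they cannot decide whether wells were paired. The fit was tested on simulated data with independent noise and no outlying array, unlike the arrays here, so that test does not bear on these features.

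The members and lists were chosen with earlier results of these data known. Named in full were 10 fixed members and the 5 with the smallest p in each comparison, with all arrays and without AllStar replicate 3, 22 in all. Of other lists up to 4 genes with the smallest p for both mimics were eligible. Promoter windows were matched by symbol to RefSeq (GRCh38.p14), and 47 members matched. Alternatives were leaving out arrays, array weights, a replicate block, an intensity trend, other scaling, a level filter, probe set means and other thresholds.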

Additional observations from a re-analysis of the deposited data

How the results depend on the processing

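With all 9 arrays, the limma unadjusted p was under 0.05 for 8 members for Qmimic against AllStar (6.74% of all genes lower). The same held for 22 for Dmimic (4.80% of all genes) and 19 for both mimics (7.87% of all genes). It held for 0 for Qmimic against Dmimic (1.04% of all genes higher and 1.50% lower). In each of these comparisons limma called 0 members. The count stayed at 0 under adjusted p alone, a log2 limit of 1.5, an intensity trend, a level filter of 60%, mean probe sets, median centring, repeated quantile normalisation and the replicate block, and was 0 to 0 when each of the 9 arrays was left out in turn. The replicate block left the medians at -0.29, -0.42, -0.35 and 0.15. Array weights, with which the AllStar mean rested mostly on replicate 2, called 5 members for Qmimic, 12 for Dmimic and 9 for both mimics. These stand beside 0.516%, 1.07% and 0.673% of all genes called lower. Without AllStar replicate 3 and Dmimic replicate 3 the counts were 5 for Qmimic (0.480% of all genes called lower) and 1 for Dmimic (0.384% of all genes). Without Qmimic replicate 1 as well they were 1 for Qmimic (0.268% of all genes) and 2 for Dmimic (0.425% of all genes). Both fits were chosen after seeing the data, and the cause was not tested. Over single arrays left out the median ranged from -0.41 to -0.19 for Qmimic, -0.57 to -0.16 for Dmimic, -0.48 to -0.24 for both mimics and -0.08 to 0.28 for Qmimic minus Dmimic, where the sign turned without Dmimic replicate 3. Over the same arrays KIF18A ranged from -0.40 to 0.034 for Qmimic and from -0.43 to 0.0086 for both mimics, and TOP2A from -0.28 to 0.040 for Qmimic, each above 0 only without AllStar replicate 1. NCAPH ranged from -0.017, without Dmimic replicate 3, to 0.43 for Qmimic minus Dmimic, and was also -0.017 without AllStar replicate 3 and Dmimic replicate 3; none of these values was called, and the cause was not tested. The 3 arrays per group limit what can be told: the median 95% half-width was 0.45 for a member and 0.27 for all genes.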
